A study of Mus musculus with 2 samples.

Results

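The 10 genes described here, Arg1, Retnla, Chil3, Mrc1, Clec10a, Mgl2, Ccl17, Ccl22, Ccl24 and Pdcd1lg2, are effector genes of alternatively activated macrophages, taken from 21887 protein-coding genes of the RefSeq table for GRCm38.p6. They were chosen by name. A peak was assigned to a gene when its summit stood no more than 50 kb from one of the gene's annotated ends. The windows of Mgl2 and Clec10a overlap, as do those of Ccl22 and Ccl17, so the 10 genes form 8 loci, and a peak was counted once per locus. These loci held 69 of the 149349 untreated peaks and 123 of the 240661 IL-4 peaks.

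The peaks come from CUT&Tag, in which an antibody, here against the phosphatase PHLPP1, directs a transposase to nearby DNA that is then sequenced. Both libraries are from mouse bone marrow-derived macrophages grown with 20 ng/ml of M-CSF, a macrophage growth factor, and the series' design describes the cells as wild type. The untreated group is 1 library, and the IL-4 group is 1 library from cells given IL-4 at 20 ng/ml for 4 h. With 1 library per group there is no replicate check and no test of a difference, so values are set side by side, and no PHLPP1-deficient, control antibody or input library was analysed here.

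In alternative activation, IL-4 binds its receptor and activates the transcription factor STAT6, which enters the nucleus and binds DNA at sites made of TTC and GAA with a short spacer. Its target genes include those of the arginine-degrading enzyme arginase 1, secreted lectin-like proteins, endocytic lectin receptors, chemokines that attract T cells and eosinophils, and a ligand of the receptor PD-1. PHLPP1 is a protein phosphatase best known for acting on the kinase AKT. It has no textbook DNA-binding domain, so a peak is at most DNA near the antibody's target and not a contact of the protein with a sequence. Without a control library, it cannot be told here which peaks mark the target and which are background.

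The start of Ccl17, the gene of a chemokine for T cells, was the only one of the 7 annotated starts with a peak of each list over its upstream 250 bases. Its sequence is shown first (RefSeq, GRCm38.p6, chr8:94810203-94810452, plus strand), with the 88 bases covered by a peak in capitals.
Ccl17: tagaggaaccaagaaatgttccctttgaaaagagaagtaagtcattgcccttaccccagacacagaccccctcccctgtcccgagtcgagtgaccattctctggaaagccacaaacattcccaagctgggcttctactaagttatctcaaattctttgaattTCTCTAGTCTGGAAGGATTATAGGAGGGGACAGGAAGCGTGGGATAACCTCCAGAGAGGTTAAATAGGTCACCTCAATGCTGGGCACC
The covered bases are the last 88 before the start site. The untreated peak spanned 94810420 to 94810788, with 7 fragments at a summit 187 bp after the start (exact Poisson 95% interval 2.81 to 14.4) and a fold of 3.75 over local background. The IL-4 peak spanned 94810365 to 94810600, with 4 fragments (1.09 to 10.2) at a summit 9 bp before the start and a fold of 2.46. The caller's -log10 q was 1.42 for the untreated peak and 0.40 for the IL-4 peak, so only the untreated peak passed q of at most 0.05. The 2 peaks overlapped by 181 bp.

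The upstream 250 bases of the 7 members with an entry in the RefSeq promoter table were searched for TTCNNNNGAA, the spacing favoured by STAT6, and TTCNNNGAA, the spacing favoured by most other STAT proteins. Each motif is its own reverse complement, so 1 search covers both strands. TTCNNNNGAA was found upstream of Ccl17, Retnla and Pdcd1lg2, and TTCNNNGAA upstream of Ccl17 and Chil3. Over all 32851 promoters of the table, 5.85% held the first and 7.02% the second. In Ccl17 the matches TTCTCTGGAA and TTCTTTGAA begin 154 and 99 bases before the start, and both lie outside the bases covered by a peak. The other sequences with a match are shown because they place the motif, in capitals, relative to the peaks described below.
Retnla (chr16:48842359-48842608, plus strand): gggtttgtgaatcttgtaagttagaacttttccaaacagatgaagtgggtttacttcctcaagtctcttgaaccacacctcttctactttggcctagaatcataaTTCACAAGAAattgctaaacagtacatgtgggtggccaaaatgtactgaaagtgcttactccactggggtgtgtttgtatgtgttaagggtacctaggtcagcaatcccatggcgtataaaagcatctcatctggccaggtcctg
Chil3 (chr3:106167565-106167814, minus strand): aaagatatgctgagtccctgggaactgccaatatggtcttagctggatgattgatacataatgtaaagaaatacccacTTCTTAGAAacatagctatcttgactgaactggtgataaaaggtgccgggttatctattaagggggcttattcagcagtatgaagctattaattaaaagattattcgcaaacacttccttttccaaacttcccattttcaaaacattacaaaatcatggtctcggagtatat
Pdcd1lg2 (chr19:29410669-29410918, plus strand): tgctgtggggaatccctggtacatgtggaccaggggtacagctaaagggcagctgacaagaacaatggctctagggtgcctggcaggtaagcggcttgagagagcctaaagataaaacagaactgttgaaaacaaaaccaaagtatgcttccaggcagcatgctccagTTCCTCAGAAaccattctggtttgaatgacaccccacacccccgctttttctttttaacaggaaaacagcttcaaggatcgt
None of these 3 stretches was overlapped by a peak of either list. A match describes the letters only. The table holds no entry for Arg1, Clec10a or Ccl24, so their upstream and downstream sides are not told apart here.

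Most peaks near the members rested on few fragments, as did those of the whole lists, with medians of 5 untreated and 4 with IL-4. The number of sequenced fragments at each summit was solved from the deposited fold and p-value. In the untreated library the 69 peaks had a median of 5 fragments and at most 12. In the IL-4 library the 123 peaks had a median of 4 and at most 12. The untreated list admits peaks from 4 fragments and the IL-4 list from 3, each at a p of at most 0.01. The untreated library's lowest local background, 0.936 fragments, was 1.46 times that of the IL-4 library, 0.643. A fragment number is therefore not on the same scale in both libraries. The fold enrichment, which is relative to each library's own local background, is given where peaks of both are set side by side. It has 1 added to fragments and to background, so at backgrounds this low it is not fully on the same scale either. At q of at most 0.05, 7 of the 69 untreated peaks remained (10.1%, Wilson 95% interval 5.0 to 19.5), against 14.6% of the whole list. Of the 123 IL-4 peaks 23 remained (18.7%, 12.8 to 26.5), against 12.5% of the whole list. All intervals cover counting error only, since fragments from PCR are not independent molecules.

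**Figure D1:**
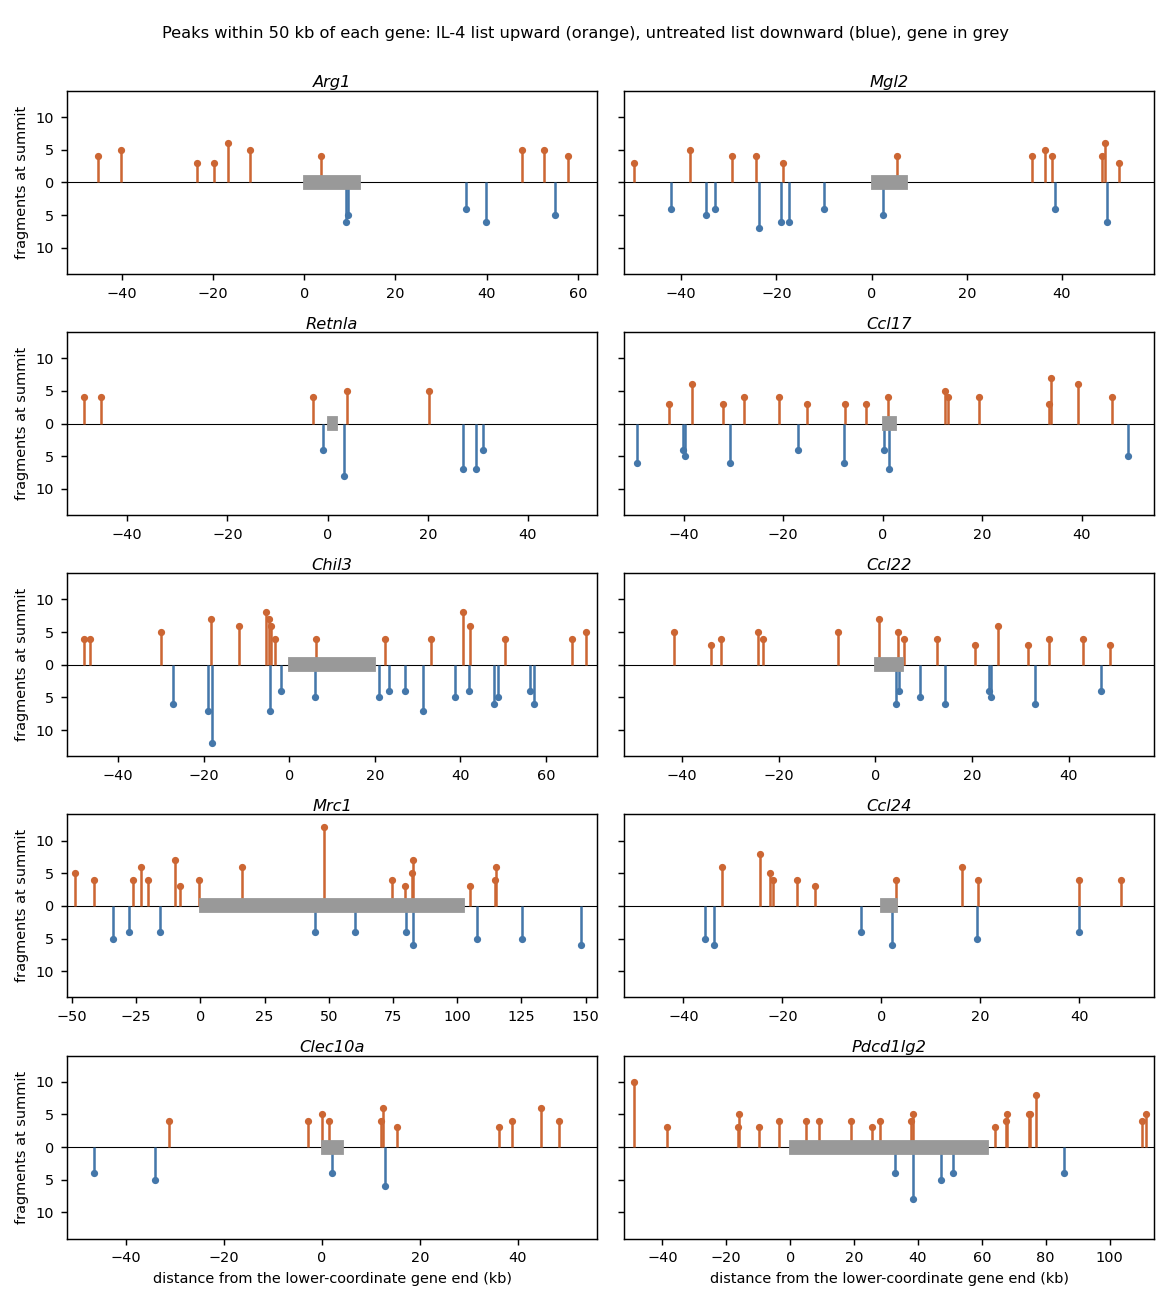
Peaks within 50 kb of either end of each gene, placed by distance in kb from the gene's lower-coordinate end, with the number of fragments at the summit as height (IL-4 list upward, untreated list downward, gene body in grey). The tallest bars are the IL-4 peak of 12 fragments inside Mrc1 and the untreated peak of 12 fragments beside Chil3, and most other bars are between 3 and 8.

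More IL-4 than untreated peaks were listed near 9 of the 10 members and as many near 1, Retnla, where 85.1% of all protein-coding genes had more IL-4 peaks. With the IL-4 list shortened to the length of the untreated list, the log2 ratio described next was above 0 for 6 members, against 54.4% of all genes, and below 0 for Chil3 (-0.18), Mgl2 (-0.29) and Ccl17 (-0.15). Arg1 was below 0 in the 100 kb window (-0.08). The median log2 ratio of IL-4 to untreated peak counts, with 1 added to each, was 0.77 for the members and 0.81 for all genes. A ratio of at least 1 was found for 2 of 10 members, Clec10a and Pdcd1lg2, against 41.1% of all genes. No member had a ratio of -1 or lower, against 0.745% of all genes. A peak at q of at most 0.05 stood within 50 kb of 5 of 10 members in the untreated list, against 59.6% of all genes, and of 9 of 10 in the IL-4 list, against 78.9%. The members together thus stood close to the ratio over all genes, while single members ranged from 0.0 for Retnla to 1.87 for Pdcd1lg2.

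**Figure D2:**
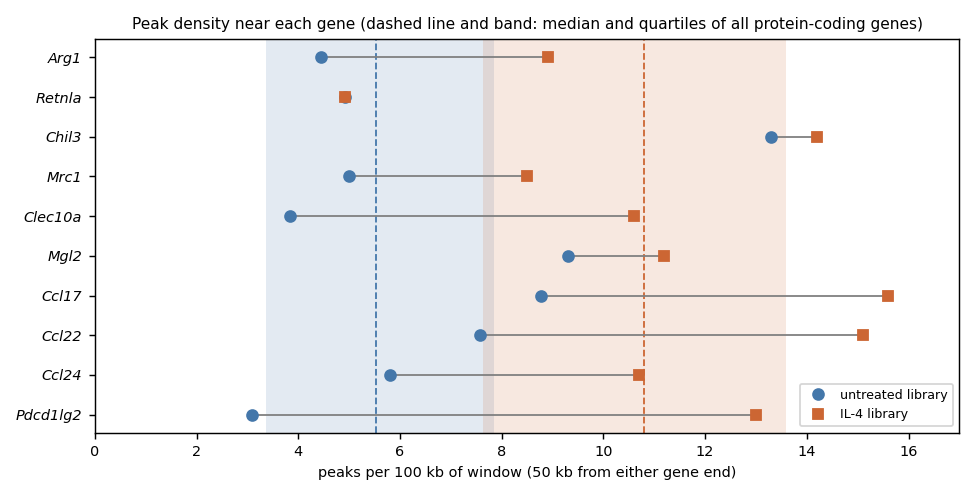
Peaks per 100 kb of window for each gene in the untreated library (circles) and the IL-4 library (squares), with dashed lines and bands for the median and quartiles of all protein-coding genes. The medians are 5.53 untreated and 10.8 with IL-4; the symbols of Retnla coincide at 4.91, and Chil3 has the highest untreated density at 13.3.

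Among the enzyme and secreted products, Arg1 encodes arginase 1, which splits arginine into ornithine and urea. It lies on chromosome 10 from 24915207 to 24927470 and had 5 untreated and 10 IL-4 peaks, or 4.45 and 8.91 per 100 kb. Neither list had a summit within 1 kb of its ends. The 2 untreated peaks inside the gene had 6 and 5 fragments and folds of 3.62 and 3.10, at summits 3080 and 2667 bp from the nearest end. The IL-4 list had 1 peak inside it, of 4 fragments and a fold of 3.04, 3691 bp from the other end. Both lists thus had weak peaks in the gene body, at different places. The strongest IL-4 peak of the locus, on chromosome 10 from 24898399 to 24898560, had 6 fragments (2.2 to 13.1) and a -log10 q of 1.84, at 16733 bp from the gene. No peak of one list overlapped a peak of the other at this locus.

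Retnla encodes the secreted resistin-like molecule RELM-alpha and lies on chromosome 16 from 48842609 to 48844461. It had 5 peaks in each list, or 4.91 per 100 kb, where 42.7% of all genes had a lower untreated density and 12.6% a lower IL-4 density. The strongest untreated peak lay 1420 bp past the gene's 3' end, on chromosome 16 from 48845813 to 48845972, with 8 fragments (3.45 to 15.8), a fold of 4.65 and a -log10 q of 2.08. The nearest IL-4 summit was 562 bp away and had 5 fragments and a fold of 3.65. An untreated peak of 4 fragments and a fold of 2.58 from 48841719 to 48842007 had its summit 808 bp upstream of the start. The nearest IL-4 peak upstream, of 4 fragments and a fold of 3.04, was 2813 bp from the start. Retnla was the only member with more untreated than IL-4 peaks at q of at most 0.05, 2 against 0. The 2 further untreated peaks of 7 fragments lay 25186 and 27793 bp from Retnla and close to Retnlg, a gene of the same resistin-like family.

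Chil3 encodes Ym1, a secreted chitinase-like lectin, and lies on chromosome 3 from 106147554 to 106167564 among related genes. It had 16 untreated and 17 IL-4 peaks, or 13.3 and 14.2 per 100 kb. Of all genes, 98% had a lower untreated density and 79.3% a lower IL-4 density, which made it the member richest in untreated peaks. The local background at its peaks reached 1.78 fragments without IL-4 and 1.22 with it, above the lowest values of 0.936 and 0.643. Reads from near-identical family members can be split or lost in alignment, so the counts here are uncertain; the part of this in the density was not tested.

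The strongest untreated peak of all members lay 18183 bp beyond the 3' end of Chil3, on chromosome 3 from 106128997 to 106129551. It had 12 fragments (6.20 to 21.0), a local background of 1.77, a fold of 4.69 and a -log10 q of 2.75. An IL-4 peak of 7 fragments (2.81 to 14.4) with a fold of 4.87 and a -log10 q of 2.58 had its summit 48 bp away and overlapped it by 304 bp. The deposited folds were thus close, but each has 1 added to the fragments and to the background. The local background was 1.77 at the untreated peak and 0.643 at the IL-4 peak, so close folds are not equal ratios to background. The nearest annotated gene end was that of Chia1, a chitinase gene, 2747 bp from the untreated summit. On the other side of Chil3 an IL-4 peak of 8 fragments lay 20661 bp away, nearer to Chil4, the gene of the closely related Ym2. At the start of Chil3 an untreated peak spanned 106168428 to 106168738, with 5 fragments (1.62 to 11.7) and a fold of 3.10 at a summit 873 bp upstream. The nearest IL-4 summit was 2349 bp upstream, with 4 fragments and a fold of 3.04.

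Of the endocytic lectin receptors, Mrc1 encodes the mannose receptor CD206, and it held the strongest peak of any member. The gene lies on chromosome 2 from 14229414 to 14332023. It had 10 untreated and 17 IL-4 peaks, or 5.0 and 8.5 per 100 kb, close to the median of all genes at a log2 ratio of 0.71. The peak in question was in the IL-4 list, inside the gene, on chromosome 2 from 14277063 to 14277650, 588 bp wide. It had 12 fragments (6.20 to 21.0), a -log10 q of 6.93 and a fold of 7.46, and its summit was 48097 bp from the gene start. The nearest untreated summit was 3641 bp away and had a fold of 2.58 and 4 fragments, the lowest number the untreated list holds.

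A peak at a -log10 q of at least 5 stood within 50 kb of 1 of the 10 members in the IL-4 list, against 8.90% of all genes. None of the members had an untreated peak of that strength, against 0.726% of all genes. Mrc1 also had the most IL-4 peaks at q of at most 0.05, 6, and no untreated peak at that level. Its window was the widest of the members, 200 kb, and Chil3 had 5 such IL-4 peaks in 120 kb. The 6 of Mrc1 included 1 of 7 fragments 9792 bp upstream of Mrc1, with a -log10 q of 2.58, which was nearer to an end of Tmem236, at 2371 bp. A second site inside Mrc1 was listed in both libraries: an untreated peak of 6 fragments from 14311717 to 14312127 overlapped IL-4 peaks of 7 and 5 fragments, with the nearer summit 53 bp away. The folds there were 3.62 untreated and 4.09 and 2.99 with IL-4. An IL-4 peak of 4 fragments and a fold of 3.02 lay 551 bp upstream of the start. The nearest untreated summit was 15613 bp upstream, with 4 fragments and a fold of 2.58.

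Clec10a and Mgl2 encode the galactose-type lectins CD301a and CD301b and are neighbours on chromosome 11, at 70166623 to 70170836 and 70130125 to 70137542. Their locus held 10 untreated and 16 IL-4 peaks. Clec10a had 4 and 11, a log2 ratio of 1.26, and Mgl2 had 10 and 12, a ratio of 0.24, with some peaks counted for both genes. An IL-4 peak of 5 fragments (1.62 to 11.7) lay across the lower end of Clec10a, from 70166585 to 70167061, with its summit 1 bp from that end, a fold of 3.51 and a -log10 q of 1.26. The untreated list had its nearest peak 2078 bp from a Clec10a end, inside the gene, with 4 fragments and a fold of 2.58. Mgl2 had no peak within 1 kb of an end in either list, and inside it stood 1 untreated peak of 5 fragments and 1 IL-4 peak of 4, with folds of 3.10 and 3.04. Peaks of 6 fragments in each list, with folds of 3.62 untreated and 4.2 with IL-4, overlapped by 195 bp beside Clec10a, 8646 and 8272 bp from it.

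Of the chemokine genes, Ccl22 and Ccl17 encode ligands of the receptor CCR4 and lie together on chromosome 8, with Ccl22 from 94745684 to 94751388 and Ccl17 from 94809380 to 94812038. The locus held 12 untreated and 26 IL-4 peaks, 15.6 per 100 kb in the IL-4 list and the densest of the 8 loci there. Ccl22 had 8 and 16 peaks and Ccl17 had 9 and 16, and 85.4% and 87.9% of all genes had a lower IL-4 density. In the untreated list 72.5% and 82.5% had a lower density, so both genes were on the dense side in each library.

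Inside Ccl22 the IL-4 list had a peak of 7 fragments (2.81 to 14.4) from 94746424 to 94746573, with a summit 802 bp after the start, a fold of 3.95 and a -log10 q of 1.83. It was the strongest gene-end peak of the members in the IL-4 list. Toward the 3' end, untreated peaks of 6 and 4 fragments with summits 4343 and 4828 bp after the start alternated with an IL-4 peak of 5 fragments at 4665 bp, without overlap. The folds were 3.62 and 2.58 for the untreated peaks and 3.20 for the IL-4 peak. A further IL-4 peak of 4 fragments lay 141 bp past the 3' end.

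For Ccl17 the outcome depended on which start was used. The gene table begins at 94809380, and the start site of the promoter table is 94810453. By the gene table the untreated list alone had a peak within 1 kb of an end, with 4 fragments from 94809649 to 94809798. By the start site of the promoter table both lists had one, the overlapping pair described above, with folds of 3.75 untreated and 2.46 with IL-4. The strongest peak of the locus, of 7 fragments at a -log10 q of 2.58, was in the IL-4 list 31115 bp from Ccl17 and nearer to an end of Ciapin1.

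**Figure D3:**
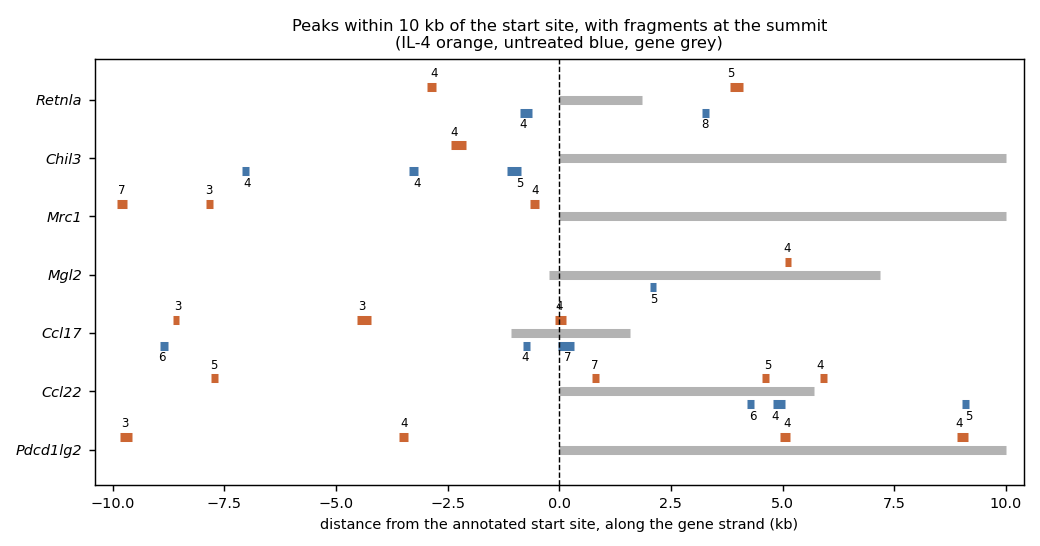
Peaks with a summit within 10 kb of the annotated start of the 7 members with a start in the promoter table, in kb along the gene's strand (IL-4 list in orange above each gene, untreated list in blue below, fragments at the summit as numbers). Peaks of the 2 lists stand over each other at the Ccl17 start, and Mrc1 and Pdcd1lg2 have 3 and 4 IL-4 peaks and no untreated peak in this span. These IL-4 peaks have 3 to 7 fragments, and the untreated list admits none below 4. No share over all genes is given for this span.

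Ccl24 encodes eotaxin-2, a chemokine for eosinophils, and lies on chromosome 5 from 135569935 to 135573123. It had 6 untreated and 11 IL-4 peaks, a log2 ratio of 0.78. An IL-4 peak of 4 fragments and a fold of 3.04 from 135572874 to 135573023 had its summit 140 bp from the upper end of the gene. An untreated peak of 6 fragments and a fold of 3.54 from 135571925 to 135572185 lay inside the gene, 1128 bp from that end and so just outside the 1 kb limit. The strongest peak of the locus was an IL-4 peak of 8 fragments (3.45 to 15.8) from 135545196 to 135545611, with a fold of 5.33 and a -log10 q of 3.35. It lay 24468 bp from Ccl24 and 144 bp from an end of Hip1, a gene of clathrin-mediated endocytosis. Untreated and IL-4 peaks overlapped at 2 sites in the window of Ccl24, both away from the gene. At 1 of them, with summits 16139 and 16303 bp from Ccl24, the overlap was only 9 bp, with 5 and 4 fragments and folds of 3.10 and 3.04. At the other it was 115 bp and both had 4 fragments, with folds of 2.58 untreated and 3.04 with IL-4. Its summits lay 36760 and 36826 bp from Ccl24 and nearer to the end of another gene.

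Pdcd1lg2 encodes PD-L2, a ligand of the inhibitory T cell receptor PD-1, and had the largest excess of IL-4 peaks among the members. It lies on chromosome 19 from 29410919 to 29472927. The untreated list held 5 peaks and the IL-4 list 21, or 3.09 and 13 per 100 kb, a log2 ratio of 1.87 that was above that of 91.9% of all genes. Of the IL-4 peaks 6 lay upstream, 7 inside and 8 downstream of the gene, and of the untreated peaks 4 lay inside and 1 downstream. Neither list had a summit within 1 kb of an end.

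The strongest IL-4 peak of the Pdcd1lg2 locus had 10 fragments (4.80 to 18.4) and a -log10 q of 4.41, at a fold of 6.0, and spanned 29361854 to 29362128 on chromosome 19. It lay 48998 bp from Pdcd1lg2 but 186 bp from an end of Cd274, the gene of the related ligand PD-L1. A second, of 8 fragments and a -log10 q of 2.90, lay 14929 bp past Pdcd1lg2, whose end was the nearest of any gene. The strongest untreated peak, of 8 fragments with a fold of 4.65 and a -log10 q of 2.08, lay inside the gene from 29449407 to 29449605. The nearest IL-4 summit was 197 bp away with 5 fragments and a fold of 3.65, and the intervals did not overlap. At q of at most 0.05 the gene had 1 untreated and 2 IL-4 peaks, a log2 ratio of 0.58 like the median of all genes at that threshold.

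Grouped by peaks within 1 kb of a gene end, 1 member had such a peak in both lists, Ccl22, against 13.8% of all genes. For IL-4 alone it was 3 members, Mrc1, Clec10a and Ccl24, against 35.5%. For the untreated library alone it was 3 members, Retnla, Chil3 and Ccl17, against 8.93%. The remaining 3, Arg1, Mgl2 and Pdcd1lg2, had none in either list, against 41.8%. These 4 untreated and 5 IL-4 peaks rested on 4 to 7 fragments, and with 10 genes the shares are coarse. Of these gene-end peaks only the IL-4 peak of Ccl22 was left at q of at most 0.05. By the start sites of the promoter table, which 7 members have, the classes held Ccl17 in both lists, Mrc1 and Ccl22 in the IL-4 list, Retnla and Chil3 in the untreated list, and Mgl2 and Pdcd1lg2 in neither. Of these start-site peaks the untreated peak of Ccl17 and the IL-4 peak of Ccl22 were left at q of at most 0.05. Shares over all genes are not given for these start-site classes.

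Peaks of the 8 loci lay mostly away from the gene ends, as did those of all genes. In the untreated list 46 of 69 (66.7%, 54.9 to 76.6) were 10 to 50 kb from the nearest member end, and in the IL-4 list 87 of 123 (70.7%, 62.2 to 78.0). Counted per gene, the shares at 10 to 50 kb were 70.5% and 73.5% for the members and 74.9% and 73.1% over all genes. By the same count 5.13% of the members' untreated peaks and 3.68% of their IL-4 peaks were within 1 kb of an end, against 3.45% and 4.85% over all genes. A member's own end was the nearest of any protein-coding gene for 38 untreated peaks (55.1%, 43.4 to 66.2) and 58 IL-4 peaks (47.2%, 38.6 to 55.9). The summits nearest to the 50 kb limit were an IL-4 peak of 3 fragments at 49982 bp from Mgl2, inside it, and an IL-4 peak of 6 fragments at 50069 bp from Pdcd1lg2, outside it.

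The 2 lists shared few sites near the members. At least 1 bp of overlap was found for 8 of 69 untreated peaks (11.6%, 5.99 to 21.2), against 8.73% of the whole list, and for 9 of 123 IL-4 peaks (7.32%, 3.90 to 13.3), against 5.42%. The intervals hold the shares of the whole lists. Chil3 had 3 of these sites, Ccl24 had 2, and Mrc1, the locus of Clec10a and that of Ccl17 had 1 each. Arg1, Retnla and Pdcd1lg2 had none. The overlap beside Chil3 at 18 kb was the only 1 in which the peaks of both lists passed q 0.05.

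**Figure D4:**
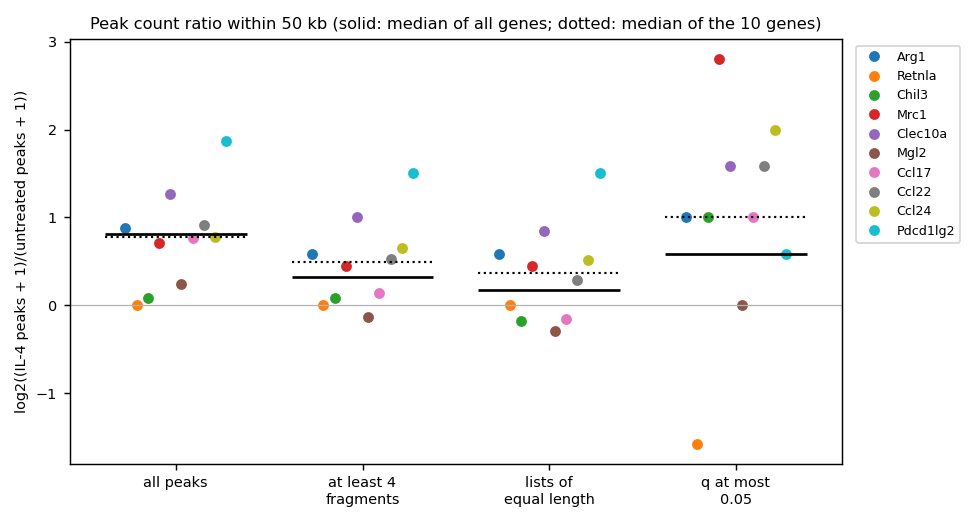
Log2 ratio of IL-4 to untreated peaks within 50 kb, with 1 added to each count, for the 10 genes under 4 ways of counting peaks (solid line: median of all genes; dotted line: median of the 10 genes). Pdcd1lg2 is highest among all peaks, with at least 4 fragments and with lists of equal length, but lies at 0.58 at q of at most 0.05, where Mrc1 is highest at 2.81 and Retnla lowest at -1.58.

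Other gene lists, given for comparison and not tested, had median log2 ratios from 0.24 for B cell markers to 1.38 for macrophage markers, on both sides of the 0.77 of the members. The 26 other genes of alternative activation, including receptor, transcription factor and feedback genes, had a median log2 ratio of 0.64. They include Chil4 and Retnlg, which lie near Chil3 and Retnla, so some peaks were counted both for them and for the members. A ratio of 1 or more was found for 11 of the 26, against 41.1% of all genes. Peaks within 1 kb of an end stood in IL-4 alone for 15 of the 26 (35.5% of all genes), in untreated alone for 2 (8.93%) and in both for 4 (13.8%). The strongest gene-end peak of the 26 lay at Klf4, a transcription factor gene of this state, with 11 fragments (5.49 to 19.7) in the IL-4 list. The strongest of the 10 effector genes, a smaller list, had 7, at Ccl22. The 10 effectors of classical activation, such as Nos2 and Tnf, had a median of 1.06, with 5 at 1 or more. The 7 STAT genes had a median of 1.28, and all 7 were at 1 or more. The strongest IL-4 peak within 50 kb had a median -log10 q of 2.21 over the members, 2.30 over the other alternative activation genes, 3.40 over the STAT genes and 1.95 over all genes.

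Peak lists of this kind do not measure expression, and cell identity was looked at only by the gene ends of marker genes. In the IL-4 list a peak within 1 kb of an end stood at 49.3% of all protein-coding genes. It did so at 4 of 8 macrophage, 4 of 4 dendritic cell, 3 of 5 T cell, 2 of 4 erythroid, 2 of 6 neutrophil, 1 of 4 stromal and 1 of 4 B cell markers. With 4 to 8 genes a list, these counts give no check of the labelled cell type.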

How the data were processed

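CUT&Tag peaks of 2 libraries, untreated and IL-4, were analysed. There is 1 deposited list per library. MACS2 2.2.7.1, Bowtie 0.12.8, DiffBind and mm10 stand in the submitters' processing notes with no role or order. The sources used here do not give duplicate treatment, the calling control or total reads. The deposited fold is a linear ratio of fragments to the caller's local background, with 1 added to each. Each deposited -log10 p or -log10 q is as the caller wrote it, used to describe and filter peaks. The deposited score was 10 times -log10 p, cut to a whole number, for 100% of entries. The remaining deposited column (other) is the summit offset.

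Fragments at a summit were solved from fold = (fragments + 1)/(background + 1) and the Poisson upper tail, and whole numbers gave back -log10 p to within 0.01 in 100% of entries. Entries of 1 interval with several summits were reduced to the one of highest -log10 q, leaving 149349 and 240661 of 149552 and 241315. Gene ends came from RefSeq GRCm38.p6 (mm10), start sites and sequences from the RefSeq promoter table. Python 3.11.15, pandas 2.3.3 and scipy 1.17.1 were used, and the steps were tested on simulated data. The text names all 10 members, the strongest peak of each list per locus, gene-end peaks, overlapping pairs, and neighbouring genes nearer to a peak with a -log10 q of at least 2; Retnlg and the genes of the closing section were added after values were seen. The members and lists were chosen with earlier results of these data known. Alternatives were q of at most 0.05, at least 4 fragments, lists of equal length, every summit, windows of 25 and 100 kb, the whole gene body, gene ends of 500 bp and 3 kb, and stricter overlaps.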

Additional observations from a re-analysis of the deposited data

How the results depend on the processing

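The members' median log2 ratio stayed above 0 in every alternative run, from 0.37 with lists of equal length to 1.0 at q of at most 0.05. It lay above the median of all genes with lists of equal length (0.37 against 0.17), with at least 4 fragments (0.49 against 0.32) and at q of at most 0.05 (1.0 against 0.58), and just below it with all peaks. Members with a ratio of at least 1 numbered 2 with all peaks (41.1% of all genes), 1 with lists of equal length (16.6%), 4 with the 25 kb window (42.8%) and 7 at q of at most 0.05 (40.5%), where 1 member was at -1 or lower (10.2%). The counts behind the ratios at that q were small. Arg1 reached 1 with 0 untreated peaks and 1 IL-4 peak, and Clec10a and Ccl22 had 0 and 2. Arg1, Ccl17 and Chil3 stood exactly at 1. Some of these peaks were counted for both genes of a pair, Clec10a and Mgl2 or Ccl22 and Ccl17. Single members below 0 were Chil3, Mgl2 and Ccl17 with lists of equal length, Mgl2 with at least 4 fragments (-0.14) and in the 25 kb window (-0.58), Arg1 in the 100 kb window and Retnla at q of at most 0.05 (-1.58). At that q the loci held 7 untreated and 23 IL-4 peaks, with 1 peak of each list shared, and the gene-end classes were both lists for 0 members, IL-4 alone for 1, untreated alone for 0 and neither for 9. The 25 kb window held 45 untreated and 80 IL-4 peaks, and the 100 kb window 125 and 213. An overlap of at least 50% of the shorter peak was found for 6 untreated and 6 IL-4 peaks. A summit of the other list within 200 bp was found for 8 and 8. With gene ends of 500 bp the classes both, IL-4 alone, untreated alone and neither held 0, 3, 1 and 6 members. With 3 kb they held 7, 2, 1 and 0. Fewer peaks or wider windows set these counts by construction. Shares over all genes are not given for the classes at 500 bp, 3 kb or q of at most 0.05, so these describe the members only. No paired analysis was possible because each group has 1 library. Most member peaks rest on 3 to 8 fragments, so a site listed in 1 library cannot be taken as absent from the other.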

Other observations

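Several peaks assigned to a member by distance lay at the end of a neighbouring gene, a count made after the values were seen. The neighbouring gene ends in the windows were not counted, so the numbers below are not rates per end. Of the IL-4 peaks of the 8 loci, 9 had a summit within 1 kb of the end of 8 other protein-coding genes, against 5 at the members' own ends. In the untreated list 3 peaks lay at the ends of 2 other genes, against 4 at the members' ends. Beside those of Cd274 and Hip1, the IL-4 list had peaks of 5 fragments at Ric1, 195 bp from its end, and 4 fragments at Med23, a gene of the Mediator complex next to Arg1, 43 bp from its end. Cx3cl1, the gene of the chemokine fractalkine between Ccl22 and Ccl17, had an IL-4 peak of 4 fragments 833 bp from its end.

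Asgr2, the gene of a subunit of the asialoglycoprotein receptor beside Mgl2, had gene-end peaks in both lists. The untreated peak had 7 fragments (2.81 to 14.4), a fold of 4.13 and a -log10 q of 1.57, at 213 bp from an end. The IL-4 peaks had 5 and 4 fragments and folds of 3.65 and 3.04, at 595 and 330 bp. Retnlg had gene-end peaks in the untreated list only, of 7 and 4 fragments at 354 and 802 bp.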
